A study of Homo sapiens with 4 samples.

Results

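A set of 10 genes that define granulosa cells or receive their hormones were followed across the 4 arrays of a study of KGN cells: the gonadotropin receptors FSHR and LHCGR, the hormone AMH and its receptor AMHR2, and the transcription factors FOXL2, RUNX1, GATA4, GATA6, WT1 and NR0B1. The genes were chosen by name, with earlier results of these data known. Of the 10, 8 were matched to a probe set that names exactly 1 gene, among 17687 genes measured in this way, and each had 1 probe set. AMH and NR0B1 had no named probe set in the annotation used here and have no value.

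KGN is an established human line derived from a granulosa cell tumour, so every value comes from 1 line. Cells of the siNC group received control siRNA at 10 nM, and cells of the siYT group received siRNAs against YAP and TAZ at 5 nM each. After 48 h the medium was changed, either to plain medium (siNC, siYT) or to medium that held the cyclic AMP analogue 8Br-cAMP, which enters cells, at 0.5 mM for 24 h (siNC+8Br-cAMP, siYT+8Br-cAMP). Total RNA of each of the 4 groups was hybridised to 1 Clariom S Human array, so no difference has a replicate check, and the number of arrays limits the precision. The values are the authors' log2 signals, and RNA from a whole culture cannot tell a change in all cells from a change in the share of cells that hold the RNA. On the arrays labelled siYT the targeted gene YAP1 was at 6.80 without and 6.29 with 8Br-cAMP, against 9.48 and 9.46 in siNC. WWTR1, which encodes TAZ, was at 5.45 and 5.35 against 7.58 and 9.13.

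Granulosa cells surround the oocyte and answer to follicle-stimulating hormone and luteinizing hormone through FSHR and LHCGR, receptors that couple to Gs and raise cyclic AMP inside the cell. FOXL2 keeps the ovarian fate of these cells by holding back the testis programme, and RUNX1 takes part in the same task in the fetal ovary. GATA4 and GATA6 switch on genes of steroid synthesis, WT1 is high in granulosa cells of early follicles, and AMH, a hormone of growing follicles, signals through AMHR2. NR0B1, also called DAX1, is a corepressor of the steroidogenic factor NR5A1.

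Promoter windows of the receptors and of RUNX1 are shown because FSHR and RUNX1 were the members that stood at least 2-fold higher after YAP/TAZ siRNA in both media, while LHCGR, a close relative of FSHR, differed by 0.07 and 0.06. Each window holds the 250 bases before the RefSeq start, on the strand of the gene, 5′ to 3′, in build GRCh38.p14. Capitals mark matches on either strand to GGAATG, the core bound by TEAD factors (the DNA-binding partners of YAP and TAZ), or to the GATA word, which is GATA with A or T before it and A or G after it.
FSHR, chr2:49154516-49154765, minus strand: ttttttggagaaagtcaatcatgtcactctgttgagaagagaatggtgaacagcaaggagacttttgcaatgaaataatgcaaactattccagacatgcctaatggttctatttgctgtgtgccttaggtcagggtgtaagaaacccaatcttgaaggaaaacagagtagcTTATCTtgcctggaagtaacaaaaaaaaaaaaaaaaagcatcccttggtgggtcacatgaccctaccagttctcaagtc
RUNX1, chr21:34888700-34888949, minus strand: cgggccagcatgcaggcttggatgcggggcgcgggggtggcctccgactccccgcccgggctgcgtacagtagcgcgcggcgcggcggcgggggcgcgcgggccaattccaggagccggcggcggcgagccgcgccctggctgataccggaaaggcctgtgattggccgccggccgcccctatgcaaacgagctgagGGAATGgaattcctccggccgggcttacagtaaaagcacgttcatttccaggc
LHCGR, chr2:48755725-48755974, minus strand: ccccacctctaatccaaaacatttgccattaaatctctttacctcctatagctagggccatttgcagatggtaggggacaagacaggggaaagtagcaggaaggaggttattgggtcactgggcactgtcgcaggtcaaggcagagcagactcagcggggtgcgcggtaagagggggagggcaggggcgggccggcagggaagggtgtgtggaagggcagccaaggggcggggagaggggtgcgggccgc

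The RUNX1 window held 1 TEAD word, given as GGAATG and starting 53 bases before the RefSeq start. The FSHR window held 1 GATA word, read as TTATCT on the strand shown and starting 79 bases before the start, and no TEAD word. The LHCGR window held none of the words searched, which also included TGACG, the core of the cyclic AMP response element, AAGGTCA, a word bound by NR5A receptors, and the E-box CACGTG. Of 35116 promoter windows of this length, 11.9% held the TEAD word, 22.3% a GATA word, 21.2% TGACG, 3.44% AAGGTCA and 6.34% CACGTG. Windows of 9 of the 10 genes were searched, and the chromosome that holds GATA4 was left out of the search of members. The TGACG core occurred in the FOXL2 window, 36 and 233 bases before the start, and in 1 of the 4 windows of WT1. That WT1 window also held the TEAD word, 244 bases before the start, and a GATA word, 75 bases before it. The AMH window held GATA words 184, 168 and 74 bases before the start. A match is only a run of letters, and binding was not measured.

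The levels were set against the 612 probe sets that the array names as negative controls, taken here as the background. What these probe sets match is not given in the sources used here. Their medians lay between 3.53 and 3.67 and their 95th percentiles between 6.53 and 7.29. Of the 8 measured members, 4 passed the 95th percentile of their array at least once, against 49.6% of all genes. RUNX1, GATA4 and GATA6 did so on all 4 arrays, as did 37.3% of all genes, and WT1 on siNC+8Br-cAMP alone. FSHR, LHCGR, AMHR2 and FOXL2 stayed under it on every array. A value under this limit does not show that a transcript was absent.

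**Figure D1:**
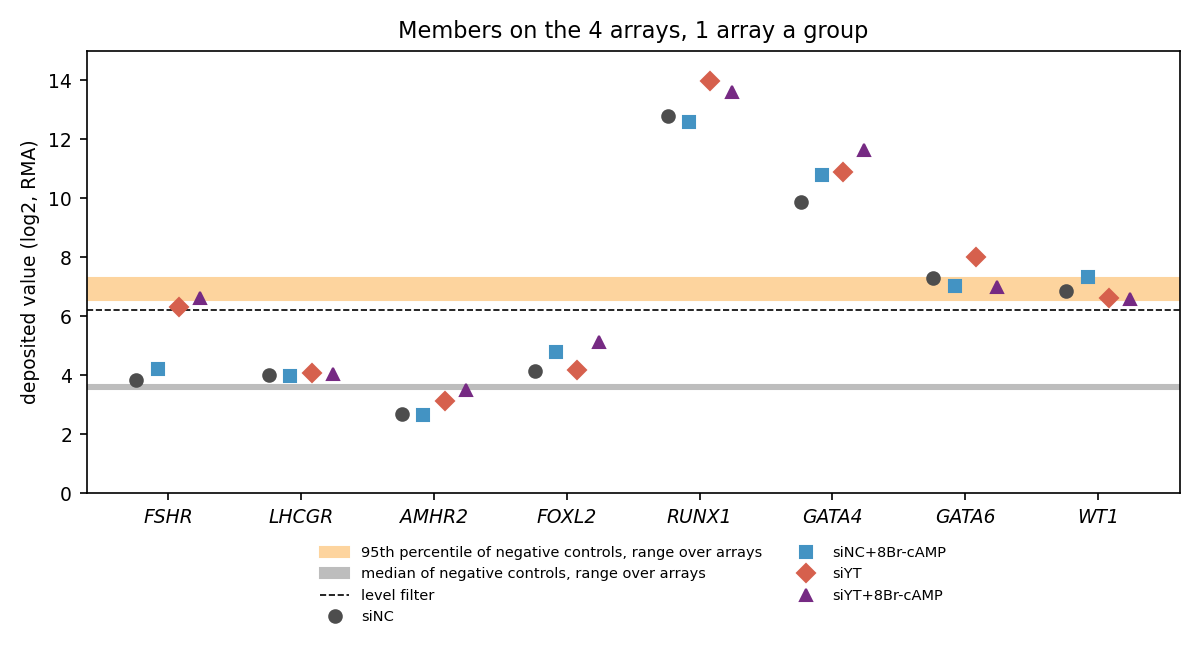
Deposited log2 values of the 8 measured members, 1 point for each of the 4 arrays, with the range over arrays of the 95th percentile (upper band) and of the median (lower band) of the negative controls and the level filter of 6.22 (dashed). RUNX1 and GATA4 stand above both bands on all 4 arrays, while LHCGR, AMHR2 and FOXL2 stay under the upper band. Heights of different genes are not comparable.

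Among the receptors, FSHR was at least 2-fold higher after YAP/TAZ siRNA and LHCGR was not. FSHR was at 3.82 in siNC, 4.23 in siNC+8Br-cAMP, 6.31 in siYT and 6.63 in siYT+8Br-cAMP. The siYT arrays were thus the high pair, and the share of all genes that separate in this way was not counted. The siRNA difference was 2.49, or 5.62-fold, without 8Br-cAMP and 2.41, or 5.30-fold, with it. It lay at the 99.1 and 99.5 percentiles of all genes in the respective medium. The siNC values were passed by 44.1% and 28.3% of negative controls, and the siYT values still by 9.64% and 7.03%, so the folds start from background and their size depends on it. With a level filter at 6.95, the 95th percentile of the negative controls over the 4 arrays, neither difference of FSHR is called. With 8Br-cAMP FSHR differed by 0.40 after siNC and by 0.32 after siYT, and the difference of these differences was -0.08.

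LHCGR, the receptor that granulosa cells acquire late in follicle growth, was at 4.002 in siNC, 3.99 in siNC+8Br-cAMP, 4.07 in siYT and 4.05 in siYT+8Br-cAMP. Its whole range was 0.09, and between 37.1% and 39.7% of negative controls reached its values. With either treatment LHCGR stayed within the background.

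AMHR2, the receptor that gives AMH signalling its specificity, was at 2.67 in siNC, 2.66 in siNC+8Br-cAMP, 3.13 in siYT and 3.50 in siYT+8Br-cAMP. All 4 values lay under the median of the negative controls of their array. Its siRNA differences of 0.46 and 0.84 therefore describe values within the background.

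FOXL2, the factor of ovarian fate, was at 4.13 in siNC, 4.78 in siNC+8Br-cAMP, 4.19 in siYT and 5.14 in siYT+8Br-cAMP. The arrays with 8Br-cAMP were higher than those without, by 0.65 after siNC and 0.95 after siYT, and the siRNA differences were 0.06 and 0.36. Between 16.7% and 36.8% of negative controls reached these values. In this line of granulosa origin the FOXL2 probe set thus lay below the negative controls' 95th percentile on each array. The same held for INHA, the inhibin subunit (5.12 to 5.70), and HSD17B1, which makes estradiol from estrone (4.15 to 4.68). Of 23 other granulosa genes measured, 13 passed that percentile on at least 1 array, INHBA, FST and CYP19A1 among them. This is near the 49.6% of all genes. On single arrays 8 passed in siNC, 12 in siNC+8Br-cAMP, 9 in siYT and 11 in siYT+8Br-cAMP. CYP19A1, at 5.04 in siNC, did not pass there.

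RUNX1 was well above background on every array. It was at 12.78 in siNC, 12.58 in siNC+8Br-cAMP, 13.97 in siYT and 13.61 in siYT+8Br-cAMP, where at most 1 of the 612 negative controls reached it. Both siYT arrays were above both siNC arrays, an order whose share among all genes was not counted. The siRNA difference was 1.18, or 2.27-fold, without 8Br-cAMP and 1.02, or 2.03-fold, with it. With 8Br-cAMP RUNX1 differed by -0.20 after siNC and by -0.36 after siYT.

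GATA4 had higher values with either treatment and its highest with both. It was at 9.88 in siNC, 10.79 in siNC+8Br-cAMP, 10.90 in siYT and 11.65 in siYT+8Br-cAMP. The siRNA differences were 1.02 (2.02-fold) and 0.86 (1.82-fold), and the 8Br-cAMP differences were 0.90 (1.87-fold) after siNC and 0.75 (1.68-fold) after siYT. The difference of differences of -0.15 was small beside each of them, so that on the log2 scale the siYT+8Br-cAMP value lay close to the sum of both differences.

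GATA6 had another order. It was at 7.29 in siNC, 7.03 in siNC+8Br-cAMP, 8.01 in siYT and 6.98 in siYT+8Br-cAMP. The siYT array was the high one, and the other 3 lay close together. After the siRNA it differed by 0.72 without and by -0.05 with 8Br-cAMP. The analogue gave a difference of -0.26 after siNC and of -1.03, or 2.04-fold lower, after siYT. The siYT+8Br-cAMP value lay just above the 95th percentile of its negative controls, 6.98 in both cases at this rounding.

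WT1, a zinc finger factor, was at 6.86 in siNC, 7.33 in siNC+8Br-cAMP, 6.62 in siYT and 6.59 in siYT+8Br-cAMP. It was the only measured member with a lower value after YAP/TAZ siRNA in both media, by -0.24 and -0.74. Its 8Br-cAMP difference was 0.46 after siNC and -0.03 after siYT. Between 3.10% and 8.33% of negative controls reached its values.

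A gene was called when 2 arrays lay at least 1 apart on the log2 scale, a 2-fold step, and the upper value was at or over 6.22. This level filter is the median of the gene-named values on the 4 arrays. Without 8Br-cAMP 3 of the 8 measured members were called higher after YAP/TAZ siRNA (FSHR, GATA4 and RUNX1) and 0 lower, against 7.60% of all genes higher and 7.32% lower. With 8Br-cAMP 2 were called higher (FSHR and RUNX1) and 0 lower, against 5.52% and 5.94%. In both media at once the rule named FSHR and RUNX1, against 3.44% of all genes higher in both. FSHR passed the level filter through the siYT arrays alone. The median siRNA difference of the 8 was 0.59 without and 0.60 with 8Br-cAMP, and that of all genes 0.02 and 0.06. For 8Br-cAMP 0 members were called after siNC, against 8.06% of all genes, and 1 after siYT, GATA6, which was lower, against 4.15% of all genes lower. Medians were 0.20 and 0.15, against -0.03 and -0.02 over all genes. No member was called for the difference of differences, as 8.39% of all genes were. GATA4 (1.02 without 8Br-cAMP), RUNX1 (1.02 with it) and GATA6 (-1.03) were near the threshold and each lost the call under at least 1 other scaling.

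**Figure D2:**
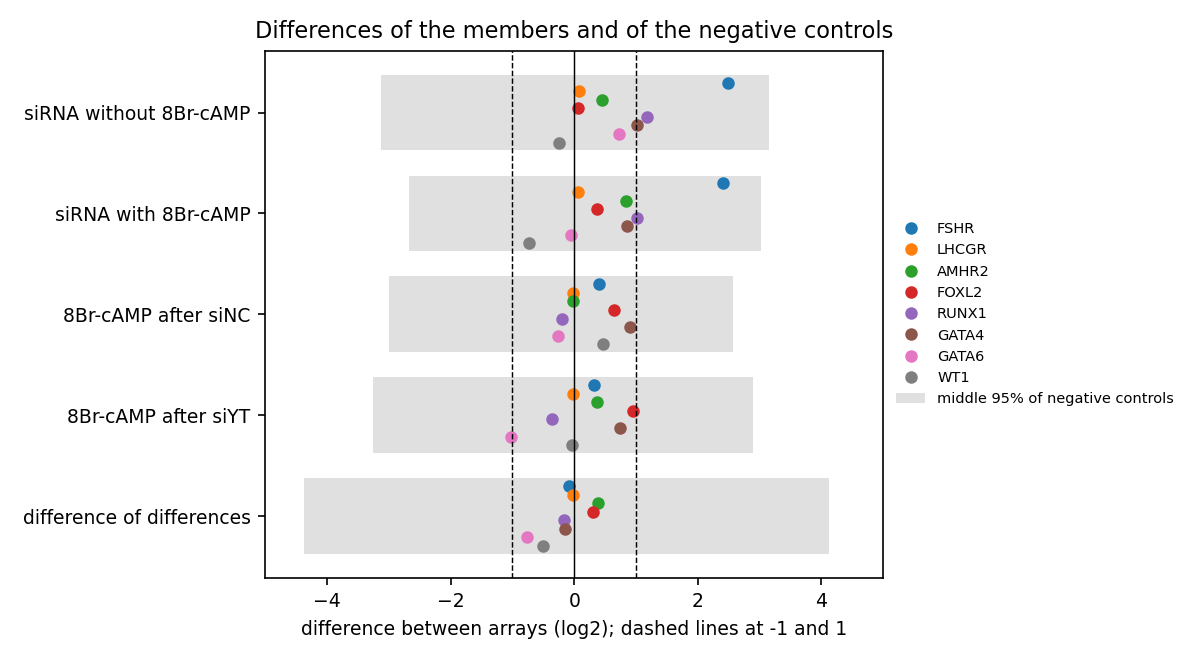
Differences between arrays on the log2 scale for the 8 measured members (points), with the middle 95% of the 612 negative controls in the same comparison (grey bars) and the call threshold of 1 (dashed). FSHR is the member farthest to the right for the siRNA in both media, and all members lie within the grey bars.

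The negative controls themselves varied widely between arrays. The middle 95% of their siRNA differences ran from -3.13 to 3.16 without and from -2.67 to 3.03 with 8Br-cAMP, and 37.1% and 35.8% of them differed by at least 1. The siRNA differences of FSHR were above 96.1% and 95.4% of those of the negative controls. This spread bears on members at background level such as FSHR, LHCGR, AMHR2 and FOXL2. RUNX1 and GATA4 lie far above that level, and no spread between cultures was measured for them.

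**Figure D3:**
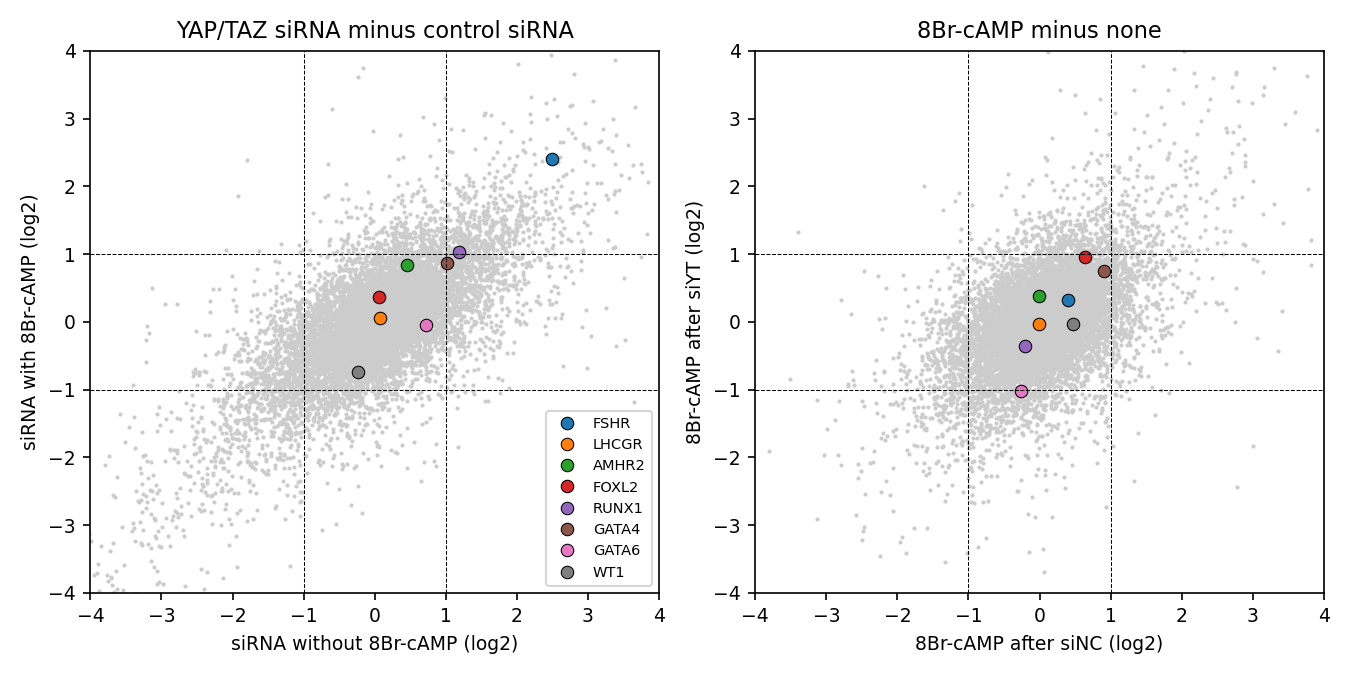
Left, siRNA differences without (x axis) and with 8Br-cAMP (y axis); right, 8Br-cAMP differences after siNC (x axis) and siYT (y axis), all on the log2 scale and drawn from -4 to 4, with grey points for genes past the level filter and coloured points for the 8 measured members. FSHR and RUNX1 lie beyond 1 on both axes at left, and at right only GATA6 passes a dashed line.

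All genes were also fitted with limma in a model that adds a term for the siRNA to a term for 8Br-cAMP. Its error has 1 residual degree of freedom, contains the difference of differences and is moderated over genes, so it is no test between replicates. FSHR rose with YAP/TAZ siRNA, by 2.45 on average and higher in both media, with an SE of 0.306 (limma, adjusted p = 0.000935). It was the only one of the 8 to pass, while 4.30% of all genes rose and 4.67% fell. Over the other settings its adjusted p ran from 2.88e-05 to 0.0633, the last with 32 added to the linear values. RUNX1, at 1.10 on average with an SE of 0.307, missed the threshold narrowly (limma, adjusted p = 0.0517, from 0.0204 to 0.0732 over the other settings). GATA4, with 0.94 and an SE of 0.307, did not pass either (limma, adjusted p = 0.0931, from 0.0479 to 0.0830). For 8Br-cAMP limma called 0 of the 8 members, and 1.81% of all genes. At an unadjusted p under 0.05 there were 2 of the 8, near the share of all genes, 2607 of 17687. These were GATA4 with a mean of 0.83 and FOXL2, at background level, with 0.80 (limma, adjusted p = 0.235 and 0.254).

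For each member with a range of at least 1 and a value past the level filter, the 3 genes nearest in pattern were taken from 9749 others, by the Euclidean distance between the 4 values after each gene's mean was removed. For FSHR these were NDP, the Wnt receptor ligand norrin, at a distance of 0.19, IL18BP, the binding protein of interleukin 18, at 0.21, and CFI, complement factor I, at 0.22. NDP lies well above background on all 4 arrays, at 9.09 in siNC, 9.24 in siNC+8Br-cAMP, 11.49 in siYT and 11.80 in siYT+8Br-cAMP. Within a distance of 0.5 FSHR had 25 genes, GATA4 385, RUNX1 374 and GATA6 484. The distance is not scaled to the range of a gene, so a gene of wide range such as FSHR has fewer neighbours by construction, and the counts do not rank the patterns.

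The genes nearest to GATA4 were COG6, a Golgi tethering subunit, TMEM39A and SRPK2, a kinase of splicing factors, at distances of 0.06, 0.06 and 0.09. Those nearest to RUNX1 were MAP2K2, the kinase MEK2, PRKACA, a catalytic subunit of protein kinase A, and L1CAM, an adhesion protein, at 0.11, 0.12 and 0.12. Those nearest to GATA6 were ZNF136, a zinc finger protein, BCAM, a laminin receptor, and FAM133B, at 0.02, 0.07 and 0.10.

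**Figure D4:**
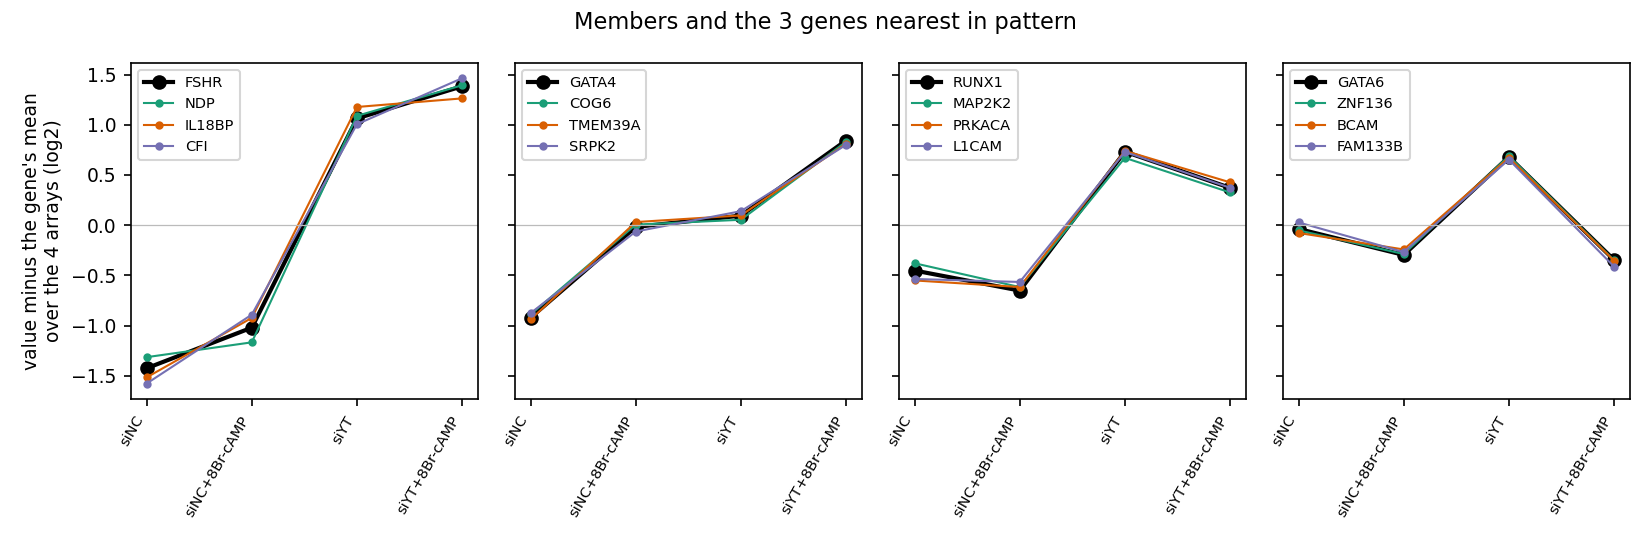
Values of 4 members (black) and of the 3 genes nearest in pattern (coloured), each minus its own mean over the 4 arrays, on the log2 scale, with the 4 groups along the x axis. FSHR steps up between the siNC and the siYT arrays, GATA4 is lowest in siNC and highest in siYT+8Br-cAMP, and GATA6 is high in siYT alone.

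Other genes that mark granulosa cells moved in both directions. Of 23 measured, 5 were called higher and 1 lower after the siRNA without 8Br-cAMP, against 7.60% and 7.32% of all genes, and 7 higher and 3 lower with it, against 5.52% and 5.94%. For 8Br-cAMP 8 were called higher and 2 lower after siNC, against 4.32% and 3.74% of all genes, and 7 higher and 1 lower after siYT, against 4.06% and 4.15%. Their median siRNA differences were 0.39 and 0.49, and their median 8Br-cAMP differences 0.43 and 0.24. Limma called 4 that rose and 1 that fell with the siRNA, against 4.30% and 4.67% of all genes, and 6 that rose with 8Br-cAMP, as 1.15% of all genes did. The 4 called genes with the largest difference in any of the 4 comparisons were the steroid synthesis genes CYP19A1, STAR, HSD3B2 and CYP11A1, each by its 8Br-cAMP difference, or for CYP19A1 by either treatment. CYP19A1, the aromatase, was at 5.04, 14.26, 14.26 and 17.56 in the order siNC, siNC+8Br-cAMP, siYT, siYT+8Br-cAMP. These 4 genes were at least 2-fold higher with 8Br-cAMP after either siRNA, where FSHR differed by 0.40 and 0.32.

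A few further members of this list were picked after their values were seen. GJA1, the connexin of granulosa gap junctions, was higher after the siRNA by 3.64 without and 2.31 with 8Br-cAMP. HSD3B2 differed by 1.63 and 1.13, but without 8Br-cAMP its values of 4.17 and 5.80 lay under the level filter. FST, the activin-binding follistatin, was lower by -3.28 and -1.62. INHBA, the activin subunit, was at 11.36, 13.39, 11.09 and 15.08 in the same order, so its siRNA difference was -0.27 without and 1.69 with 8Br-cAMP. KITLG, the ligand that granulosa cells offer to the oocyte's KIT receptor, was lower after the siRNA by -0.88 and -1.29. WNT4, a ligand of the ovarian fate, was at 5.46, 6.49, 4.82 and 4.61, with siRNA differences of -0.63 and -1.88. By the limit used for the members, WNT4 was above the negative controls on no array. Its differences therefore lie between values at background level. CDH2, the cadherin of granulosa cell contacts, was at 13.00, 12.31, 14.11 and 13.04, with siRNA differences of 1.11 and 0.73.

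Another list holds the machinery that couples gonadotropin receptors to the cell or removes them from its surface. Of 16 measured genes, 0 were called higher and 2 lower after the siRNA without 8Br-cAMP, against 7.60% and 7.32% of all genes, and 1 higher and 1 lower with it, against 5.52% and 5.94%. For 8Br-cAMP 0 were called after siNC, against 8.06%, and 1 higher and 0 lower after siYT, against 4.06% and 4.15%. With 16 genes these counts lie near the shares of all genes. The median siRNA differences were -0.23 and -0.01, and the median 8Br-cAMP differences -0.15 and -0.08. GNA11, a Gq family subunit, fell by 1.66 with an SE of 0.307 (limma, adjusted p = 0.00804). It was the 1 gene of the list that limma called for the siRNA, where 4.67% of all genes fell. For 8Br-cAMP limma called 0, against 1.81% of all genes. GNAS, the Gs subunit through which both receptors raise cyclic AMP, was at 13.54, 14.16, 14.30 and 14.17. GRK5, a kinase that marks active receptors for arrestins, was at 5.97, 6.61, 6.25 and 7.68, and GNAI3, an inhibitory subunit, at 12.62, 12.24, 11.60 and 11.51.

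Partners of AMHR2 passed the negative controls although AMHR2 itself did not. All 11 measured genes of AMH signalling passed the 95th percentile of the negative controls at least once, against 49.6% of all genes. Without 8Br-cAMP 5 were called higher and 0 lower after the siRNA, against 7.60% and 7.32% of all genes, and with it 1 higher and 2 lower, against 5.52% and 5.94%. For 8Br-cAMP 5 were called higher and 0 lower after siNC, against 4.32% and 3.74%, and 2 higher and 1 lower after siYT, against 4.06% and 4.15%. The difference of differences was called lower for 6 of the 11 and higher for 0, against 4.82% of all genes lower, with a median of -1.11 against 0.01 over all genes. ID2, a target of the SMAD proteins, was at 8.84 in siNC, 13.54 in siNC+8Br-cAMP, 13.46 in siYT and 14.25 in siYT+8Br-cAMP. SMAD6, an inhibitory SMAD, was at 9.71, 11.69, 10.87 and 10.42, so either treatment alone gave a higher value than siNC and the pair of them less than 8Br-cAMP alone. SMAD7, the other inhibitory SMAD, was at 7.58, 7.79, 9.75 and 8.62, and ID3 at 11.56, 14.45, 13.05 and 14.19. ID2 and SMAD7 rose with the siRNA (limma, adjusted p = 0.0372 and 0.0317), as 4.30% of all genes did. ID3 rose with 8Br-cAMP (limma, adjusted p = 0.0381), as 1.15% of all genes did. These genes also serve other BMP receptors.

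Cofactors and relatives of the GATA, RUNX and WT1 proteins were listed with other gonadal factors. Of 19 measured, 1 was called higher and 3 lower after the siRNA without 8Br-cAMP, against 7.60% and 7.32% of all genes, and 0 higher and 1 lower with it, against 5.52% and 5.94%. For 8Br-cAMP 3 were called higher and 1 lower after siNC, against 4.32% and 3.74%, and 2 higher and 2 lower after siYT, against 4.06% and 4.15%. Median differences were -0.04, -0.02, 0.17 and -0.02 in that order. ZFPM2, the FOG2 cofactor that binds GATA4, was at 7.17 in siNC, 7.63 in siNC+8Br-cAMP, 8.95 in siYT and 7.65 in siYT+8Br-cAMP. As with GATA6, its siYT array was the high one. CITED2, a coactivator that works with WT1 in the early gonad, fell by 1.45 with an SE of 0.312 (limma, adjusted p = 0.0169), and SIX4, a homeobox factor of gonad formation, fell by 1.63 with an SE of 0.375 (limma, adjusted p = 0.0234). Limma called these 2 of the 19 for the siRNA, where 4.67% of all genes fell. For 8Br-cAMP it called 0, against 1.81% of all genes. BASP1, a cosuppressor of WT1, was at 12.75, 13.75, 11.60 and 13.54. RUNX2 was at 8.16, 7.29, 8.34 and 6.95 and RUNX3 between 3.58 and 3.96, within the background. CBFB, the partner subunit of all RUNX proteins, was at 12.40, 11.29, 11.84 and 11.22.

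**Figure D5:**
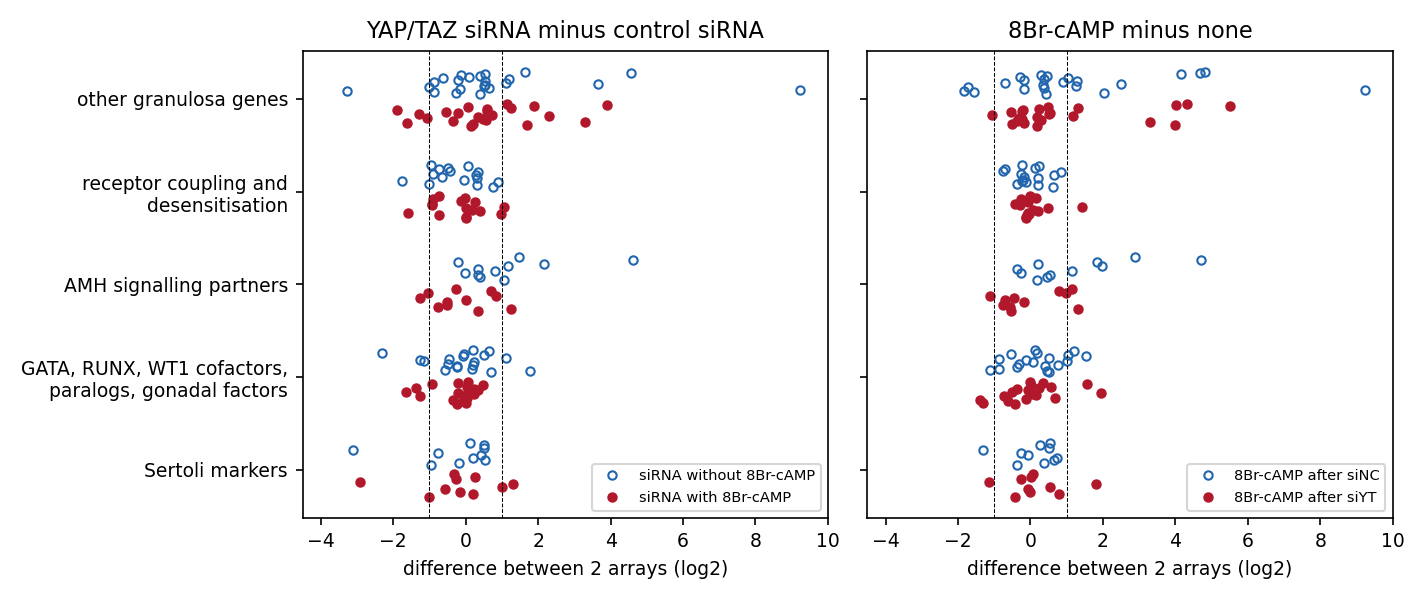
Differences between arrays on the log2 scale for the genes of 5 lists, each point 1 gene; left, the siRNA difference without (open) and with 8Br-cAMP (filled); right, the 8Br-cAMP difference after siNC (open) and siYT (filled). Dashed lines mark -1 and 1. The widest spread is among the other granulosa genes, where CYP19A1 reaches 9.23.

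Markers of other cell types were set beside the granulosa genes. Of 10 measured Sertoli markers, genes of the matching cell of the testis, 4 passed the 95th percentile of the negative controls on at least 1 array. Of all genes 49.6% did, so this count is near that share. DMRT1 and SOX8 passed it on no array. None of the 10 was called higher for the siRNA, against 7.60% of all genes without and 5.52% with 8Br-cAMP. None was called higher for 8Br-cAMP, against 4.32% after siNC and 4.06% after siYT. With 10 genes these counts lie near the shares of all genes. For the siRNA 1 was called lower without 8Br-cAMP and 2 with it, against 7.32% and 5.94% of all genes. For 8Br-cAMP 1 was lower after siNC and 1 after siYT, against 3.74% and 4.15%, and 1 call among 10 genes is close to such shares. CLDN11, a tight junction claudin, was at 15.74, 14.42, 12.65 and 11.49. It fell with the siRNA by 3.01 with an SE of 0.307 (limma, adjusted p = 0.000275), as 4.67% of all genes fell. This was the 1 call of limma in the list. SOX9, the factor that FOXL2 opposes, was at 7.09, 6.72, 6.15 and 5.71.

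LUM and DCN, 2 of 8 measured theca and stroma markers, were higher on both siYT arrays, as FSHR was. Of the 8, 3 were called higher after the siRNA without 8Br-cAMP, against 7.60% of all genes, and 2 with it, against 5.52%, and 0 lower. After 8Br-cAMP 1 was lower in siNC cells, against 3.74%, and 3 in siYT cells, against 4.15%, and 0 higher. LUM, the proteoglycan lumican, was at 4.89, 5.28, 10.23 and 9.73, and DCN, decorin, at 5.84, 4.56, 9.23 and 8.43. Both rose with the siRNA (limma, adjusted p = 8.02e-05 and 0.000119), as 4.30% of all genes did. PDGFRA, a growth factor receptor, was higher by 2.53 without and 0.06 with 8Br-cAMP, and COL1A1, a collagen chain, differed by 0.11 and -0.99. With 8Br-cAMP 1 marker of this list passed the limma test: ACTA2, the actin of smooth muscle, fell by 1.75 on the log2 scale with an SE of 0.310 (limma, adjusted p = 0.0196), as 0.662% of all genes fell. CYP17A1 and INSL3, which define theca cells, lay between 4.15 and 4.91, within the background. The log2 of the summed linear values of the list was 13.60 in siNC, 13.08 in siNC+8Br-cAMP, 13.93 in siYT and 12.52 in siYT+8Br-cAMP. COL1A1 and ACTA2 have the largest values in siNC, so this sum says little about LUM and DCN. The part of these genes in the FSHR result was not tested.

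Among 8 ovarian surface epithelium markers KRT7, a keratin, was the 1 gene above the negative controls, where 49.6% of all genes passed on at least 1 array. It was also the 1 call, higher by 1.02 with 8Br-cAMP after siYT, against 4.06% of all genes called higher there. Among 8 leukocyte and endothelial markers CD68, which also sits in lysosomes of other cells, was the 1 gene above the negative controls, against the same 49.6%. CD68 was at 10.77, 10.33, 12.69 and 13.15 and was the 1 gene of its list called higher after the siRNA in both media. Of all genes 7.60% were called higher without and 5.52% with 8Br-cAMP. PTPRC, which defines leukocytes, lay between 3.90 and 4.12. None of 8 oocyte markers passed the 95th percentile of the negative controls, as 49.6% of all genes did at least once. None was called, and the shares of all genes called are those given above.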

How the data were processed

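RNA of 4 KGN cultures was measured on Clariom S Human arrays, 1 array a group. The authors deposited log2 values from RMA, run in Expression Console of Affymetrix per the labels and the submitters' processing notes. RMA removes background, brings the arrays to one distribution and joins probes into probe sets. For tool versions and annotation build, the entry is "not given in the sources used here". Values ran from 1.39 to 19.36, and since 16 is the most a 16-bit scanner gives, a further rescaling is possible, so a fold computed from them need not be a ratio of signals. Of 24351 probe sets, 17709 named exactly 1 gene, and the probe sets of 20 genes with several were averaged, which left 17687 genes.

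Differences between 2 arrays were called at 1 with a level filter of 6.22. The additive model used limma 3.58.1 under R 4.3.3 (1 residual and 9.24 prior degrees of freedom), with Benjamini-Hochberg adjustment over all genes at 0.05. It was tested on simulated data, where the known changes were recovered but the share of false calls could exceed the nominal level. The simulated data held no difference of differences, and their siRNA changes were larger than those of RUNX1 and GATA4. They therefore do not show how the model does for such members. Only genes that passed the limma threshold are said to have risen or fallen. Promoters came from the RefSeq table of build GRCh38.p14, with Python 3.11.15.

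The members and gene lists were chosen with earlier results of these data known. All members are named, with the 3 nearest genes of each that qualified and up to 4 called genes with the largest difference in each list; other names were chosen after their values were seen. Alternatives were 2 other level filters, 2 other scalings, an offset of 32 before log2, a 1.5-fold threshold, other limma settings and other percentiles of the negative controls.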

Additional observations from a re-analysis of the deposited data

Results flagged for a closer look

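Some members differed in opposite directions under the same contrast, on 1 array each, and these oppositions were not tested. GATA6 differed by 0.72 after YAP/TAZ siRNA without 8Br-cAMP and by -0.049 with it. WT1 differed by 0.46 with 8Br-cAMP after siNC and by -0.033 after siYT. AMHR2 differed by -0.012 with 8Br-cAMP after siNC and by 0.38 after siYT, at values under the median of the negative controls. In each pair the value nearer to 0 changed sign under 1 other scaling, which ended the opposition: GATA6 was at 0.003 and WT1 at 0.023 after centring each array, and AMHR2 at 0.118 after cyclic loess.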

How the results depend on the processing

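With no replicates, no array could be left out and no spread between cultures is known. No paired analysis was possible because each group has 1 array and the labels give no replicate numbers. No called difference of a member changed direction under the alternatives run. Differences near 0 did: the FSHR difference of differences of -0.085 was 0.010 after centring and 0.099 after adding 32. For the siRNA with 8Br-cAMP, 2 members were called, but 1 with the filter at the negative controls (RUNX1), 1 after cyclic loess (FSHR) and 4 at 1.5-fold. The 1 call for 8Br-cAMP after siYT, GATA6, became 0 after centring each array (-0.97) or adding 32 (-0.87), and 2 at 1.5-fold. At 1.5-fold 1 member was also called for 8Br-cAMP after siNC (GATA4) and 1 for the difference of differences (GATA6). Without 8Br-cAMP GATA4 lost its siRNA call after centring (0.97), cyclic loess (0.97) and adding 32 (0.99). Members above the negative controls numbered 2 in place of 4 at a stricter percentile of those controls. Limma called 1 member for the siRNA, and 2 after centring, cyclic loess or with a robust trend, and 0 after adding 32. Among genes past the filter, which include 5 of the members, it called 3. The limma counts over all genes for the siRNA moved in the same directions and are given below. The causes were not tested beyond what each setting changes by construction.

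Over all genes, limma called 1586 for the siRNA, 1820 after centring, 2107 after cyclic loess, 1812 with a robust trend and 0 after adding 32. For 8Br-cAMP it called 321, 515 after centring, 744 after cyclic loess, 472 with a robust trend and 0 after adding 32. Among the 9750 genes past the filter it called 2160 for the siRNA and 702 for 8Br-cAMP. At 1.5-fold the calls went from 2639 to 4679 and 2028 to 4124 for the siRNA, from 1426 to 3517 and 1452 to 3418 for 8Br-cAMP, and from 1484 to 3726 for the difference of differences. The last was 2756 with no filter, and 42.5% of its calls were higher, or 53.9% after centring.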
